A study of Mus musculus with 12 samples.

Results

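The 47 genes described here encode the secreted Wnt ligands (17 genes), their Frizzled receptors (10), the co-receptors Lrp5 and Lrp6, secreted antagonists (8), Shisa antagonists (2), R-spondins (4) and feedback targets of the pathway (4). They were chosen by name, with earlier results of these data known, so their shares of calls beside those of all genes are description. They are part of 54232 gene identifiers counted in bulk RNA-seq of mouse eye organoids. A filter on low counts kept 46 of the 47, among 17721 genes in all, and the exception was Wnt10a with 75 counts over all libraries. The organoids were grown from mouse embryonic stem cells with GFP knocked in at 1 Rax allele, and every group carried that allele. LDHi+lactate organoids were given 25 mM sodium L-lactate and 20 µM of the lactate dehydrogenase blocker GNE-140. LDHi organoids received 20 µM GNE-140 for 3 days, and control organoids received neither compound. All 12 libraries, 4 per group, were labelled day 7, and the stem cells were a single knock-in line. The labels give a lactate pretreatment of 12 h before the inhibitor, whereas the study's methods describe lactate given in the presence of the inhibitor.

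In the canonical Wnt pathway, a ligand joins a Frizzled receptor to Lrp5 or Lrp6, the destruction complex that degrades β-catenin is inactivated, and β-catenin with TCF/LEF factors activates targets such as Axin2, Lef1, Nkd1 and Notum. Secreted Frizzled-related proteins and Wif1 bind ligands outside the cell, Dickkopf proteins such as Dkk1 bind the co-receptors, and R-spondins raise the amount of receptor at the cell surface. In the vertebrate forebrain, low canonical Wnt activity favours eye field formation, and later in mouse eye development Wnt signaling takes part in the formation of the retinal pigment epithelium and the ciliary margin.

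The comparisons asked which of these genes differed when lactate dehydrogenase was inhibited, and which differed when lactate was supplied as well. Libraries held 29255114 to 42489921 counts in LDHi+lactate, 22174002 to 46881759 in LDHi and 25209097 to 48271386 in control organoids, and the 47 genes took 0.251% to 0.417% of them. Under cell type, the labels have eye organoid in replicates 1 and 2 (37284585 to 48271386 counts) and retina progenitors in replicates 3 and 4 (22174002 to 29919036 counts), so these 2 label sets differ in depth as well as in name. Markers of the optic vesicle were present in every library, with summed levels of 663 to 997 CPM (counts scaled by the effective library size) in LDHi+lactate, 449 to 521 in LDHi and 705 to 1420 in control organoids. Each comparison used quasi-likelihood tests of edgeR, once on the groups alone and once with the replicate number as a block, since libraries with the same number deviated together from their group means. Fold changes are given with their standard error (SE), and a gene was called at a Benjamini-Hochberg adjusted p under 0.05 over all genes tested. Calls, counts of calls and adjusted p are those of edgeR unless DESeq2 is named. In bulk RNA, fewer cells of a type and less RNA per cell cannot be told apart.

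Promoter sequence is shown for 4 called genes of different roles and directions, which are not the 4 strongest differences: the antagonist Shisa2 and the receptor Fzd5, higher in LDHi+lactate than in LDHi with the block, the receptor Fzd4, lower in LDHi than in control organoids, and the ligand Wnt8b, higher in LDHi with the block. Each run is the 250 bases before the RefSeq start site in GRCm38.p6 (mm10), written 5′ to 3′ on the strand of the gene. Capitals mark the homeodomain core TAATTA and the GC box GGGCGG, on either strand, and where GC boxes abut each other their capitals form a single run.
Shisa2, chr14:59625031-59625280, plus strand: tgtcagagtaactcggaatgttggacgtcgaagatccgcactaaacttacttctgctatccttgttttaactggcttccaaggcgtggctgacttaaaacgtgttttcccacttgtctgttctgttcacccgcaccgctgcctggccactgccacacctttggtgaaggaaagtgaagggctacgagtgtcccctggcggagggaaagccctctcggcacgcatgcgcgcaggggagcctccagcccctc
Fzd5, chr1:64737751-64738000, minus strand: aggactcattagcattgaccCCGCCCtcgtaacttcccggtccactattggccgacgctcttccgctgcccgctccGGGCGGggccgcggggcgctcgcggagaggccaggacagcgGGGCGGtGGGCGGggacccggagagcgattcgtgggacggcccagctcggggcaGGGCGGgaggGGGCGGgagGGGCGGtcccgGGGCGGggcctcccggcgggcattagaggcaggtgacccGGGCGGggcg
Fzd4, chr7:89404116-89404365, plus strand: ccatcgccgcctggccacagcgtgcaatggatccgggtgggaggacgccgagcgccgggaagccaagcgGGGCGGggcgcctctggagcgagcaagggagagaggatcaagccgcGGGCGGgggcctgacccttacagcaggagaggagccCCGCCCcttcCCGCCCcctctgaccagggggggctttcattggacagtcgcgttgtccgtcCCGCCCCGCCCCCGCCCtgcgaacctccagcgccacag
Wnt8b, chr19:44493222-44493471, plus strand: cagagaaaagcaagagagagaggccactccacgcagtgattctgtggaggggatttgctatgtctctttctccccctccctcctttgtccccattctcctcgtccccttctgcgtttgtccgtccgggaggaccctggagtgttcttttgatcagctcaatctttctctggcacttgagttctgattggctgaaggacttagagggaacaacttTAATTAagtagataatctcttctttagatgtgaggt
The GC box occurred 9 times in the Fzd5 window and 7 times in the Fzd4 window, and it was not found in those of Shisa2 and Wnt8b. The GC content was 56.0% for Shisa2, 76.4% for Fzd5, 72.8% for Fzd4 and 48.4% for Wnt8b. TAATTA occurred once, in Wnt8b, starting 36 bases before the start site. The TCF/LEF letters CTTTGAT and CTTTGAA were also searched on both strands and were not found in these 4 windows. RefSeq windows were at hand for 32 of the 47 genes (38 windows). Of those 38 windows, CTTTGAT was found in 2 (of Wnt5b and Wnt11), CTTTGAA in 1 (Dkk1), TAATTA in 1 (Wnt8b) and GGGCGG in 27. Over all 32851 windows of the same length, the shares were 3.21% for CTTTGAT, 4.46% for CTTTGAA, 4.84% for TAATTA and 32.7% for GGGCGG. These matches describe the sequence and do not show that a factor binds there.

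The 47 genes covered a wide range of levels. To compare genes, CPM were divided by the exon length in kb. Over the 12 libraries, the mean CPM per kb was highest for the antagonists Sfrp2 (109.6) and Sfrp1 (66.4), followed by the ligand Wnt7b (57.9), Shisa2 (51.5) and the ligand Wnt8b (48.7). Among receptors, Fzd2 (43.2 CPM per kb) and Fzd7 (38.2) led, and Fzd6 was lowest at 3.96. Both co-receptors lay close together, at 11 CPM per kb for Lrp6 and 10.3 for Lrp5. Rspo1, Rspo3 and Rspo2 were at 38.5, 31.8 and 27.1 CPM per kb, whereas Rspo4 was at 0.530. The lowest levels were those of the ligands Wnt10a (0.0784 CPM per kb), Wnt10b (0.0942) and Wnt9b (0.498).

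**Figure D1:**
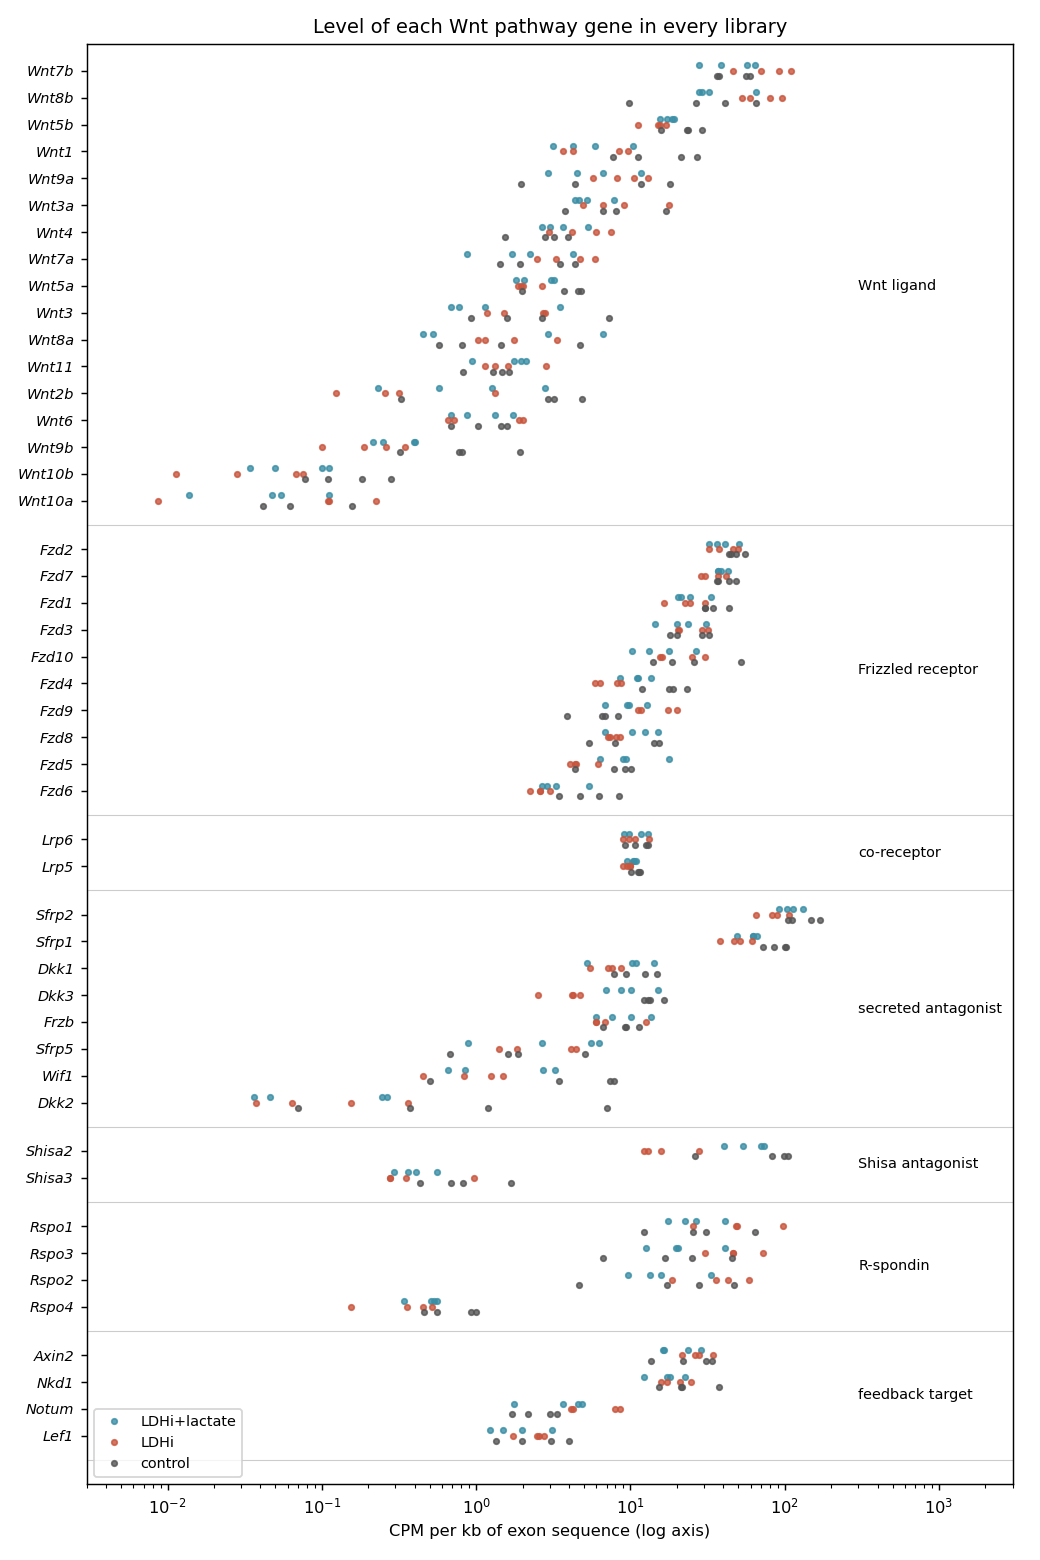
Level of each of the 47 genes in every library, in CPM per kb of exon sequence on a log axis, with genes in rows by role and 1 point per library (LDHi+lactate above, LDHi in the middle, control below within each row). Sfrp2 had the highest mean level (109.6 CPM per kb), and the lowest was that of Wnt10a (0.0784 CPM per kb, with 1 control library at 0 that is not drawn).

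In LDHi against control organoids, 7 of 46 genes were called without the block, 6 lower and 1 higher. Over all genes tested, 3.09% were called, 2.18% lower and 0.909% higher. The lower genes were the receptors Fzd4 and Fzd6, the antagonists Sfrp1, Dkk3 and Shisa2, and the ligand Wnt9b, and the higher gene was the receptor Fzd9. With the block, 24 of 46 genes were called (19 lower and 5 higher), where 19.9% of all genes were called (10.1% lower and 9.85% higher). Without the block, the median log2 fold change was -0.27 over the 46 genes and 0.0086 over all genes tested. For 8 of the 46 genes the libraries of the groups did not overlap (6 lower and 2 higher), as for 9.67% of all genes tested (5.41% lower and 4.26% higher). Markers of other cell types moved in the same libraries. Without the block, 6 of 10 optic vesicle markers and 3 of 8 pigment epithelium markers were lower in LDHi, and 4 of 7 markers of pluripotent cells were higher, summing to 541 to 993 CPM in LDHi and 223 to 461 CPM in control organoids. No optic vesicle or pluripotency marker was at 0 in any library, and the part of these markers in the differences below was not tested.

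Among the ligands, genes were called in both directions with the block, and edgeR called none higher without it. With the block 6 of 16 ligands were lower in LDHi (Wnt1, Wnt2b, Wnt5a, Wnt5b, Wnt9b and Wnt10b) and 2 were higher (Wnt7b and Wnt8b). Of all genes tested, 10.1% were lower and 9.85% higher, so the count of higher ligands was near the share of all genes. The median log2 fold change of the 16 was 0.13 (0.0117 over all genes tested). Without the block edgeR called Wnt9b alone, among 547 of all 17721 genes. DESeq2 called Wnt1, Wnt5a, Wnt5b and Wnt9b lower, among 1362 of all 17721 genes. Wnt9b, a ligand of kidney and face development, had 1.18, 0.452, 1.57 and 0.845 CPM in LDHi replicates 1 to 4, against 3.52, 1.46, 8.64 and 3.64 CPM in control replicates 1 to 4. The groups overlapped through control replicate 2, and the LDHi library was lower in 4 of 4 replicates. The log2 fold change was -2.10 (SE 0.52, adjusted p = 0.0482 in edgeR without the block). It was no longer called in 10 of the 12 fits that left out 1 library, with adjusted p of 0.0624 to 0.140, and only without LDHi+lactate replicate 2 or control replicate 2 did it pass. With the block it was -1.96 (SE 0.29, adjusted p = 0.00137), and it remained called when each replicate number was left out in turn.

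Wnt1, which marks the midbrain and the roof plate in the mouse embryo, had 10.1, 8.70, 19.9 and 23.1 CPM in LDHi, against 26.7, 18.4, 64.3 and 50.7 CPM in control organoids. Its log2 fold change was -1.35 (SE 0.19, adjusted p = 0.00108 with the block, and 0.146 without it). The groups overlapped, LDHi was lower in 4 of 4 replicates, and Wnt1 was higher in replicates 3 and 4 than in replicates 1 and 2 in every group. Wnt2b, which in the mouse eye is expressed in the pigment epithelium and the ciliary margin, had 1.08, 0.517, 1.34 and 5.61 CPM in LDHi, against 12.3, 1.37, 13.3 and 20.4 CPM in control organoids. Control replicate 2 lay within the LDHi range, and LDHi was lower in 4 of 4 replicates, with a log2 fold change of -2.58 (SE 0.34, adjusted p = 0.000895 with the block, and 0.188 without it). Wnt5b (-0.65, adjusted p = 0.00825 with the block) and Wnt5a (-0.76, adjusted p = 0.00804), ligands best known for β-catenin-independent signaling, were also lower. The call of Wnt5b was lost without replicate 1 or 3 (adjusted p = 0.0539 to 0.0586), and that of Wnt5a without replicate 3. Wnt10b was at 0.0384 to 0.258 CPM in LDHi and 0.266 to 0.960 CPM in control organoids, and its call (-1.74, adjusted p = 0.0303 with the block) was lost whichever replicate number was left out.

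The ligands that were higher were the 2 most abundant. Wnt7b, a ligand of the developing forebrain and pigment epithelium, had 535, 451, 227 and 345 CPM in LDHi, against 274, 185, 177 and 289.5 CPM in control organoids. LDHi was higher in 4 of 4 replicates although the groups overlapped, and the log2 fold change was 0.73 (SE 0.15, adjusted p = 0.00861 with the block, and 0.213 without it). Without replicate 1 the adjusted p was 0.0593. Wnt8b, a ligand of the dorsal forebrain, had 332, 208, 183 and 280.0 CPM in LDHi, against 92.8, 33.9, 143 and 226 CPM in control organoids. Control replicate 4 lay within the LDHi range, and LDHi was higher in 4 of 4 replicates. Its log2 fold change was 1.25 (SE 0.34, adjusted p = 0.0272 with the block, and 0.294 without it), and the call was lost without replicate 1 or replicate 2 (adjusted p = 0.0717 to 0.136). The difference in log2 CPM averaged 2.23 in replicates 1 and 2 and 0.33 in replicates 3 and 4.

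**Figure D2:**
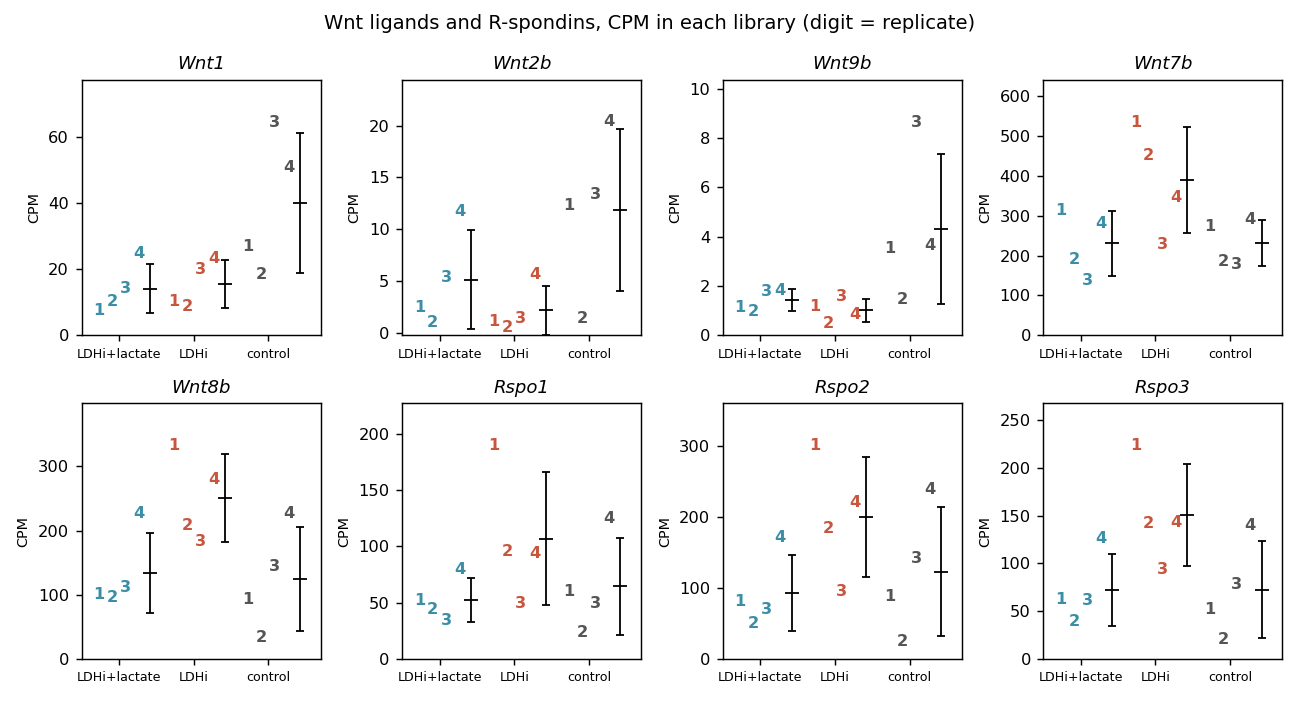
CPM of 5 ligands and 3 R-spondins in each library, with the replicate number as the symbol and bars for the mean and SD of each group (n = 4), for LDHi+lactate, LDHi and control organoids from left to right. Wnt1, Wnt2b and Wnt9b were lower in LDHi than in control organoids in each replicate, whereas Wnt7b, Wnt8b and Rspo1 to Rspo3 were highest in LDHi replicate 1.

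R-spondins bind Lgr4 to Lgr6 and, by clearing the ubiquitin ligases Rnf43 and Znrf3, keep Frizzled receptors at the surface. Rspo3 was higher in LDHi with the block (log2 fold change 1.33, SE 0.39, adjusted p = 0.0352), and without the block its adjusted p was 0.315. It had 223, 142, 93.9 and 143 CPM in LDHi, against 52.0, 20.6, 77.5 and 139.7 CPM in control organoids. Control replicate 4 lay within the LDHi range. The mean difference in log2 CPM was 2.44 in replicates 1 and 2 and 0.15 in replicates 3 and 4, and without replicate 1 or 2 the adjusted p was 0.144 to 0.184. Rspo1 (189, 95.5, 49.2 and 93.9 CPM in LDHi, against 59.9, 23.8, 49.5 and 124 CPM in control organoids) and Rspo2 (299.9, 184, 94.9 and 219.9 CPM, against 87.9, 23.8, 141 and 239 CPM) were not called, with adjusted p of 0.132 and 0.169 with the block. For both genes the LDHi library was higher in replicates 1 and 2 and lower in replicates 3 and 4. Rspo2 was singled out after its values were seen. Rspo4 was far lower than the others, at 0.368 to 1.22 CPM in LDHi and 1.09 to 2.36 CPM in control organoids, with a log2 fold change of -0.97 (adjusted p = 0.201 without the block).

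The response to the inhibitor was also compared between the 2 label sets for all 46 genes. The difference between replicates 3 and 4 and replicates 1 and 2 in the LDHi effect was not called for any gene by edgeR (0% of all genes tested), with 10 of 46 at an unadjusted p under 0.05, where 3.92% of all genes tested were. The largest of these were Rspo2 (-2.39, SE 0.94, unadjusted p = 0.0317), Rspo3 (-2.21, SE 0.73, unadjusted p = 0.0142), Wnt3a (-2.06, SE 0.78, unadjusted p = 0.0263) and Rspo1 (-2.05, SE 0.87, unadjusted p = 0.0420). The adjusted p was 0.890 for each. The same 10 also held Shisa2, Fzd8, Axin2, Wnt4, Wnt8b and Wnt9a. Of the 4 other markers of the roof plate and cortical hem, summed levels were 46.6 to 86.2 CPM in LDHi and 45.0 to 174 CPM in control organoids, and their part in these results was not tested.

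Among the 10 Frizzled receptors, 6 were lower with the block in LDHi and 1 was higher, where 10.1% of all genes tested were lower and 9.85% higher. The median log2 fold change with the block was -0.31 (0.0117 over all genes tested). Fzd4 (chromosome 7, 89404355 to 89413134 in mm10), the receptor of Norrin in the retinal vasculature, had 42.6, 39.3, 58.7 and 55.0 CPM in LDHi, against 127, 119, 156 and 79.5 CPM in control organoids. No LDHi library reached any control library. This separation by itself puts LDHi lower in 4 of 4 replicates. It also fixes the two-sided exact permutation test, which takes libraries as unpaired, at the smallest p possible for 4 against 4 libraries (p = 0.0286). The log2 fold change of Fzd4 was -1.30 (SE 0.21, adjusted p = 0.0122 in edgeR without the block), and the call held in all 12 fits that left out 1 library.

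Fzd6, which takes part in planar cell polarity in mouse skin and the inner ear, had 14.5, 12.5, 10.8 and 12.5 CPM in LDHi, against 40.5, 22.8, 30.1 and 16.6 CPM in control organoids. The groups did not overlap. In edgeR the log2 fold change was -1.13 (SE 0.28, adjusted p = 0.0481 without the block and 0.00208 with it), and without the block the call was lost in 9 of the 12 fits that left out 1 library (adjusted p = 0.0507 to 0.153). It was kept only without LDHi+lactate replicate 1, control replicate 2 or control replicate 4. Fzd1 was lower with the block (128, 94.1, 69.7 and 101 CPM in LDHi, against 182, 145, 127 and 128 CPM in control organoids, log2 fold change -0.58, SE 0.08, adjusted p = 0.00100). Fzd2 (-0.22) and Fzd7 (-0.27), the most abundant receptors, were lower by small amounts that were called with the block only (adjusted p = 0.0391 and 0.0323), each lost in 3 of the 4 fits that left out a replicate number. Fzd5 was lower with the block as well (-0.72, adjusted p = 0.0327), at 30.6, 30.3, 42.3 and 27.9 CPM in LDHi, against 64.0, 70.2, 54.1 and 30.1 CPM in control organoids, and the call was lost without replicate 1 or replicate 2 (adjusted p = 0.141 to 0.152).

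Fzd9 moved the other way. It had 45.6, 40.2, 26.8 and 25.6 CPM in LDHi, against 18.9, 15.0, 8.83 and 15.7 CPM in control organoids, with no overlap and hence LDHi higher in 4 of 4 replicates. The log2 fold change was 1.24 (SE 0.27, adjusted p = 0.0288 without the block), and 1.25 with it (SE 0.13, adjusted p = 0.000284). Without the block the call was lost without LDHi replicate 1, LDHi replicate 2, control replicate 3 or control replicate 4 (adjusted p = 0.0512 to 0.0915), and with the block it was kept without each replicate number. Fzd3, Fzd8 and Fzd10 were not called, with log2 fold changes of 0.06, -0.35 and -0.22 with the block. The co-receptor Lrp5 had 87.6 to 96.4 CPM in LDHi, against 98.3 to 112 CPM in control organoids, without overlap. Its small log2 fold change of -0.21 was called with the block (SE 0.04, adjusted p = 0.00676, 0.0588 without replicate 1), and without the block it was called by DESeq2 and not by edgeR (adjusted p = 0.168). Lrp6, at 123 to 181 CPM in LDHi and 125 to 178 CPM in control organoids, had a log2 fold change of -0.09 (SE 0.07 with the block).

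Secreted antagonists were lower in LDHi for 5 of 8 genes with the block and for 2 without it, and none was higher. Of all genes tested, 10.1% were lower with the block and 2.18% without it. The median log2 fold change of the antagonists was -0.75 (0.0117 over all genes tested, with the block). Dkk3, a divergent Dickkopf whose action on Wnt signaling differs between settings, had 15.8, 8.46, 13.9 and 14.2 CPM in LDHi, against 55.8, 43.5, 44.8 and 40.9 CPM in control organoids. The groups were far apart, and hence LDHi was lower in 4 of 4 replicates. The fold change of Dkk3 on the log2 scale was -1.82 (SE 0.24, adjusted p = 0.00907 in edgeR without the block), and the call held in all 12 fits that left out 1 library. Sfrp1, a secreted Frizzled-related protein, had 166, 223, 204 and 267 CPM in LDHi, against 444, 317, 441 and 374 CPM in control organoids. Again no library overlapped, and the log2 fold change was -0.88 (SE 0.15, adjusted p = 0.0140 without the block), called in all 12 such fits. Sfrp2, from the same family, was lower with the block (-0.63, SE 0.11, adjusted p = 0.00400, and 0.0794 without the block), at 139.9 to 229 CPM in LDHi and 225 to 362 CPM in control organoids.

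Dkk2, which is expressed in periocular mesenchyme of the mouse, had 0.576, 0.237, 0.138 and 1.34 CPM in LDHi, against 4.44, 0.261, 1.38 and 26.0 CPM in control organoids. The control mean of 8.02 ± 12.1 CPM (SD, n = 4) rested on replicate 4. The log2 fold change with the block was -3.04 (SE 0.59, adjusted p = 0.00561), called without each replicate number in turn, replicate 4 included, and without the block Dkk2 was not called by edgeR (adjusted p = 0.120) and was called lower by DESeq2. Control replicate 4 also held the highest sum of 8 mesenchyme markers, 717 CPM, against 189.5 to 297 CPM in the other control libraries and 112 to 174 CPM in LDHi. Of those markers 5 of 8 were lower in LDHi without the block, and none was at 0 in any library. Their part in the antagonist differences was not tested. Wif1, a secreted protein that binds Wnt ligands, had 1.10 to 3.65 CPM in LDHi and 1.22 to 18.8 CPM in control organoids (-1.83, SE 0.42, adjusted p = 0.0125 with the block, lost without replicate 3 or 4 at 0.0771 to 0.0790). Dkk1, Frzb and Sfrp5 were not called by edgeR in this comparison, and DESeq2 with the block called Dkk1 lower.

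Shisa proteins were described in Xenopus as holding Frizzled and FGF receptors inside the cell. Shisa2 had 44.7, 48, 102 and 58.1 CPM in LDHi, against 361, 384, 302 and 95.9 CPM in control organoids. Control replicate 4 fell below LDHi replicate 3, so the groups overlapped, although LDHi was lower in 4 of 4 replicates. This gave a log2 fold change of -2.18 (SE 0.40, adjusted p = 0.0159 without the block), and without LDHi replicate 2 the adjusted p was 0.0600. Control replicate 4 was also the control library with the lowest sum of optic vesicle markers, 705 CPM against 1054 to 1420 CPM in the others, and its part in the Shisa2 value was not tested. Shisa3 (1.31 to 4.61 CPM in LDHi and 2.05 to 7.99 CPM in control organoids) was not called by edgeR and was called lower by DESeq2 with the block, and its exons overlap those of Atp8a1 on the other strand, so its counts are uncertain.

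**Figure D3:**
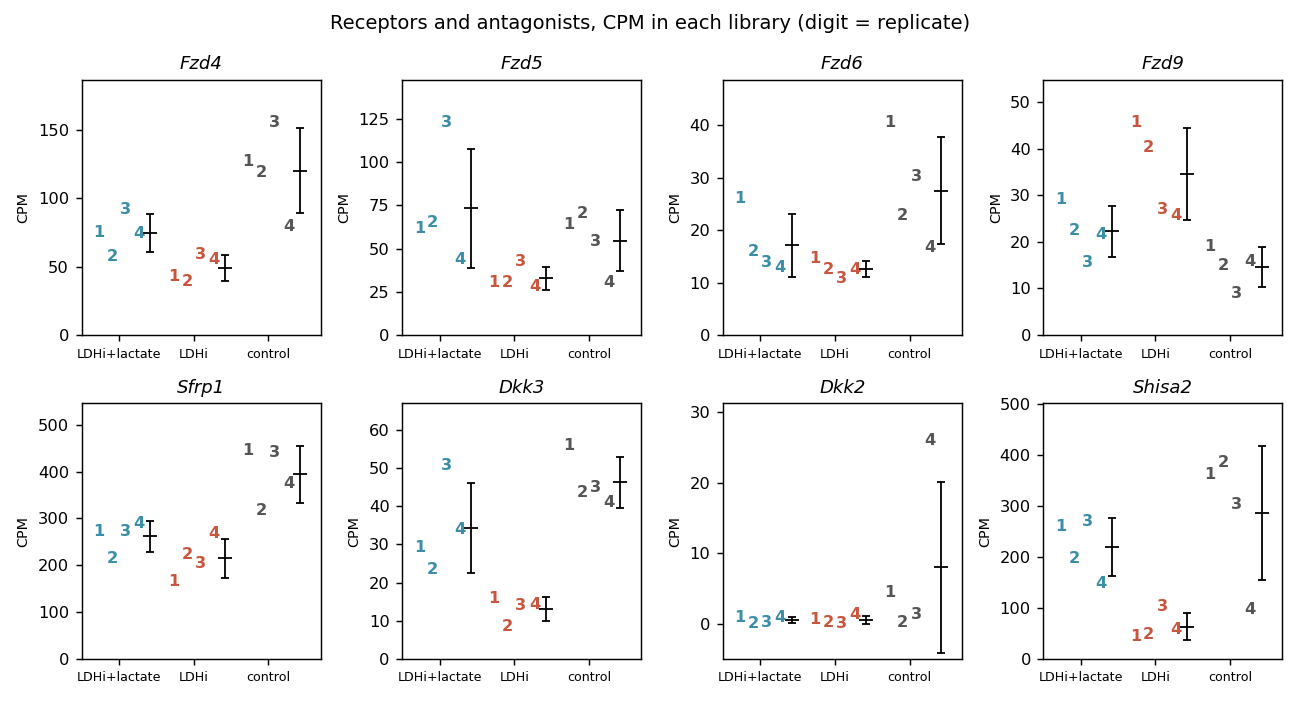
CPM of 4 Frizzled receptors and 4 antagonists in each library, drawn as in the plot of ligands (digits are replicate numbers, bars the mean and SD, n = 4; the lower SD bar of Dkk2 reaches below 0). LDHi libraries lie below all control libraries for Fzd4, Fzd6, Sfrp1 and Dkk3, and above them for Fzd9, while Fzd5 and Shisa2 are highest in LDHi+lactate or control libraries.

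The feedback targets that report canonical pathway activity showed no common direction in LDHi against control organoids. Axin2, an inhibitory scaffold induced by β-catenin, had 187, 119, 145 and 152 CPM in LDHi, against 119.7, 75.1, 169.7 and 186 CPM in control organoids. The log2 fold change was 0.21 with the block (SE 0.17, adjusted p = 0.443), the groups overlapped, and the LDHi library was higher in replicates 1 and 2 and lower in replicates 3 and 4. Nkd1, a Dishevelled-binding antagonist, had a log2 fold change of -0.22 (SE 0.15, adjusted p = 0.352 with the block) and Lef1 of -0.02 (SE 0.16, adjusted p = 0.957). Notum, a secreted enzyme that removes the lipid from Wnt ligands, had 19.0, 20.6, 9.90 and 10.2 CPM in LDHi, against 7.27, 5.23, 4.11 and 8.01 CPM in control organoids. The groups did not overlap, and the log2 fold change was 1.25 (SE 0.22, adjusted p = 0.00376 with the block, and 0.0728 without it). Exons of Notum overlap the antisense gene Notumos (381 counts against 4424), whose reads cannot be told apart where the strand setting is not given. In LDHi+lactate against LDHi, the log2 fold changes of the 4 targets were all negative, edgeR called 0 of 4, and the groups overlapped for each. Their median with the block was -0.39 (-0.0069 over all genes tested). In LDHi+lactate against control, 3 of 4 were negative, and Nkd1 was called lower by DESeq2 with the block.

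**Figure D4:**
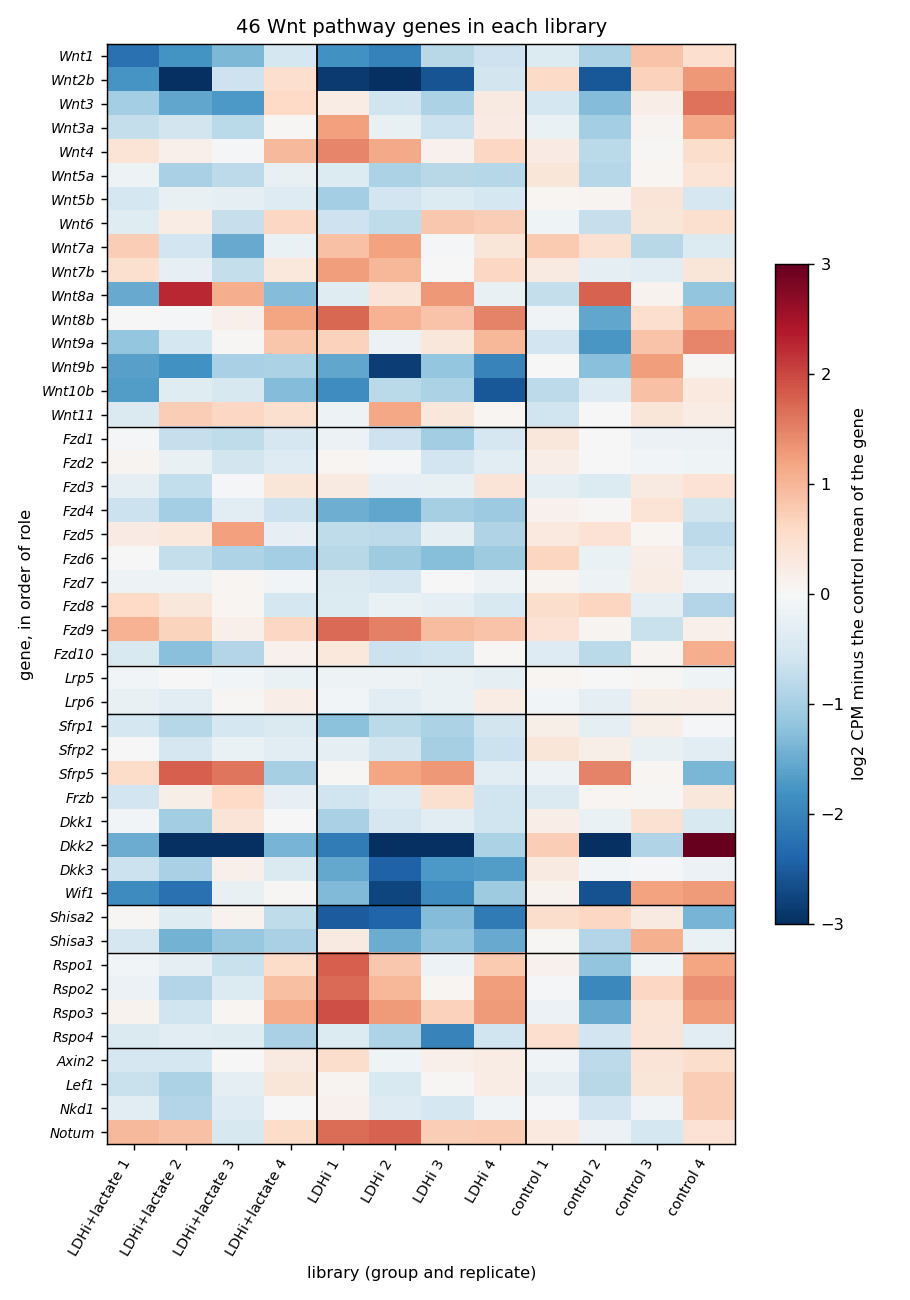
Log2 CPM of 46 genes in each library minus the control mean of the same gene, with genes in rows by role and libraries in columns (LDHi+lactate, LDHi, control), on a colour scale from -3 to 3. Dkk3, Shisa2 and Fzd4 are lower across the LDHi columns, and control replicates 2 and 4 differ from each other for Rspo1 to Rspo3, Wnt2b and Wif1.

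In LDHi+lactate against LDHi organoids, 3 of the 46 genes were higher in the fit with the block, Dkk3, Shisa2 and Fzd5, where 0.638% of all genes were called (0.57% higher and 0.0677% lower). Without the block edgeR called 0 of 46 genes (0% of all genes tested). DESeq2 without the block called 2 (Dkk3 and Shisa2), among 55 of all 17721 genes. In edgeR without the block, 6 of 46 had an unadjusted p under 0.05, where 3.4% of all genes tested did. These 3 genes were also those whose LDHi+lactate libraries all lay above all LDHi libraries (2.1% of all genes tested did not overlap, 1.51% higher and 0.587% lower). Dkk3 had 29.3, 23.4, 50.8 and 34.0 CPM in LDHi+lactate, against 15.8, 8.46, 13.9 and 14.2 CPM in LDHi. Its log2 fold change was 1.38 (SE 0.18, adjusted p = 0.0142 with the block, and 0.311 without it). As its groups did not overlap, it was higher in 4 of 4 replicates, and the two-sided exact permutation p was the smallest possible (p = 0.0286). With replicate 1, 2 or 3 left out, the adjusted p was 0.0544 to 0.0861.

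Shisa2 had 259, 197, 269 and 148 CPM in LDHi+lactate, against 44.7, 48, 102 and 58.1 CPM in LDHi. Its log2 fold change was 1.78 (SE 0.32, adjusted p = 0.0401 with the block, and 0.502 without it), and it was 2.29 in replicates 1 and 2 and 1.38 in replicates 3 and 4 as a mean difference in log2 CPM. The call was lost without replicate 1, 2 or 3 (adjusted p = 0.153 to 0.213). Fzd5, a receptor required for eye development in mouse and Xenopus, had 61.6, 64.8, 123 and 43.6 CPM in LDHi+lactate, against 30.6, 30.3, 42.3 and 27.9 CPM in LDHi. LDHi+lactate replicate 3 was the highest of all libraries. In edgeR the log2 fold change was 1.09 (SE 0.21, adjusted p = 0.0477 with the block, and 0.752 without it), and the call was lost whichever replicate number was left out (adjusted p = 0.0536 to 0.191).

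Markers of the optic vesicle and of the pigment epithelium moved with these 3 genes. With lactate, 6 of 10 optic vesicle markers and 5 of 8 pigment epithelium markers were higher with the block, and none was lower. The pigment epithelium markers summed to 248 to 592 CPM in LDHi+lactate, 153 to 323 CPM in LDHi and 358 to 1196 CPM in control organoids, and Tyr was at 0 in 1 library. Their part in the changes of Dkk3, Shisa2 and Fzd5 was not tested. Genes of the pathway that were higher in LDHi did not pass as lower with lactate in edgeR, and Fzd9 (-0.64, SE 0.12, adjusted p = 0.0520) and Wnt7b (-0.78, SE 0.15, adjusted p = 0.0591) had the smallest adjusted p among them with the block. DESeq2 with the block called Wnt7a, Wnt7b, Fzd9 and Notum lower, and Wnt2b, Fzd4, Fzd5, Dkk3 and Shisa2 higher, among 491 of all 17721 genes. Wnt8b was at 100.5, 96.2, 112 and 227 CPM in LDHi+lactate, against 332, 208, 183 and 280.0 CPM in LDHi (-1.02, adjusted p = 0.258 with the block), and Rspo3 at 62.6, 38.8, 61.0 and 126 CPM, against 223, 142, 93.9 and 143 CPM (-1.25, adjusted p = 0.220). Both were lower in LDHi+lactate in 4 of 4 replicates without passing the test.

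**Figure D5:**
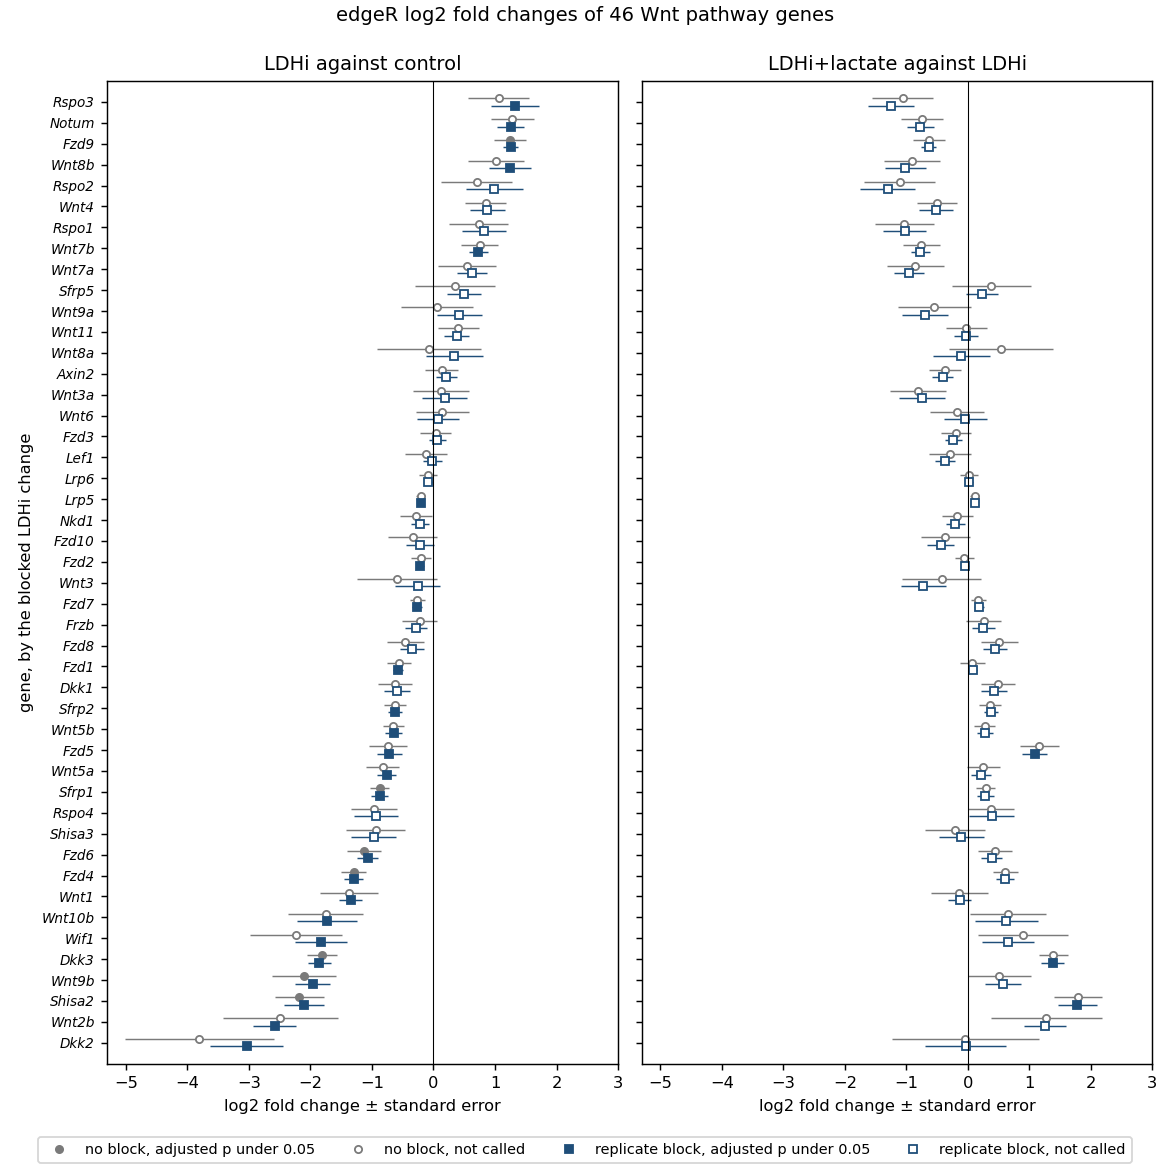
Log2 fold change (points) with its SE (bars) for 46 genes in LDHi against control (left) and LDHi+lactate against LDHi (right), from edgeR without and with the replicate block, with filled symbols for an adjusted p under 0.05. The left panel has 7 filled circles and 24 filled squares, and the right panel only the squares of Fzd5, Dkk3 and Shisa2; both panels use the LDHi libraries.

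LDHi+lactate was then compared with control organoids, which shares libraries with both comparisons above. Without the block, the median log2 fold change was -0.35 over the 46 genes and 0.0001 over all genes tested. It was negative for 36 of the 46 genes and for 8858 of all 17721. With the block 10 of 46 genes were called, 9 lower and 1 higher, where 8.05% of all genes were (3.87% lower and 4.18% higher). Without the block edgeR called 0 of 46 (0% of all genes tested). DESeq2 without the block called 1 (Sfrp1), among 229 of all 17721 genes. In edgeR without the block, 10 of 46 had an unadjusted p under 0.05, where 9.33% of all genes tested did. The lower genes with the block were the ligands Wnt1, Wnt2b and Wnt9b, the receptors Fzd1, Fzd2, Fzd4 and Fzd6, and the antagonists Sfrp1 and Dkk2, and the higher gene was Fzd9. Wnt1 had 7.48, 10.2, 14.0 and 24.5 CPM in LDHi+lactate, against 26.7, 18.4, 64.3 and 50.7 CPM in control organoids (-1.48, SE 0.19, adjusted p = 0.00629 with the block). It was the only one of the 10 to be called without each replicate number in turn. Sfrp1 had 272, 214, 271 and 289 CPM in LDHi+lactate, all below the 317 to 444 CPM of control organoids (-0.59, SE 0.13, adjusted p = 0.0293 with the block), and it was the single gene of the 46 whose groups did not overlap here (4.23% of all genes tested did not overlap, 2.12% higher and 2.11% lower).

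Fzd4 had 74.9, 57.6, 91.8 and 74.2 CPM in LDHi+lactate, between the LDHi and the control means of 48.9 and 120.3 CPM (-0.69, SE 0.15, adjusted p = 0.0252 with the block, against control). Fzd9, at 29.1, 22.5, 15.6 and 21.6 CPM in LDHi+lactate, was likewise between LDHi (34.6 ± 9.91 CPM) and control (14.6 ± 4.21 CPM, SD, n = 4), with a log2 fold change of 0.62 over control (SE 0.12, adjusted p = 0.0202). Dkk2 stayed at 0.135 to 0.980 CPM in LDHi+lactate (-3.08, adjusted p = 0.0160 with the block). Shisa2 (-0.33, SE 0.31), Dkk3 (-0.48, SE 0.18) and Fzd5 (0.37, SE 0.20) did not pass against control in edgeR with the block (adjusted p = 0.535, 0.120 and 0.282), which does not show that they were equal to control. DESeq2 with the block called 15 genes lower in LDHi+lactate than in control organoids and 2 higher (Fzd9 and Sfrp5), among 2500 of all 17721 genes. The lower ones that edgeR did not call were Dkk3, Wnt3, Wnt5a, Wif1, Shisa3 and Nkd1.

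Other genes of the pathway were counted by list. Without the block, 0 of 10 further family members, 0 of 6 secretion genes, 0 of 7 receptors of R-spondins and Dickkopfs, 0 of 14 other receptors and planar polarity genes, 0 of 11 Dishevelled and destruction complex genes and 0 of 11 nuclear effectors were called by edgeR in LDHi against control. With the block the called genes of these lists numbered 2, 1, 2, 2, 1 and 3 in the same order. Together that was 11 of 59 genes (18.6%), near the 19.9% of all genes tested. The 11 included Ror1, a receptor that binds Wnt5a and was lower (-1.10, SE 0.14, adjusted p = 0.000753), Lgr5, a receptor of R-spondins that was lower (-0.76, SE 0.22, adjusted p = 0.0350), and the TCF factor Tcf7l2, which was higher (0.47, SE 0.10, adjusted p = 0.0111). Ror1, Lgr5 and Tcf7l2 were singled out after their values were seen. Of 18 other targets of the canonical pathway, Cdx2 was higher (1.10, SE 0.16, adjusted p = 0.00977 without the block) and Nkd2 lower (-1.24, SE 0.26, adjusted p = 0.0279), and with the block 4 were higher and 4 lower. Over all genes tested, 0.909% were higher and 2.18% lower without the block, and 9.85% were higher and 10.1% lower with it.

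The 2 label sets differed for 13 of 46 genes (28.3%), near the share of all genes. That share was 27.9% (13.7% higher and 14.3% lower in replicates 3 and 4). Wnt1 (log2 difference 1.23, SE 0.16, adjusted p = 0.000290), Wnt2b (1.90), Wnt6 (0.82), Wnt9a (1.31), Fzd3 (0.48), Lrp6 (0.33), Wif1 (1.50) and Lef1 (0.76) were higher in replicates 3 and 4. Wnt7a (-1.01), Fzd2 (-0.37), Fzd8 (-0.63), Fzd9 (-0.55) and Sfrp2 (-0.33) were lower. Depth and any other property of the sets cannot be told apart from the cell type label.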

How the data were processed

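RNA of eye organoids was sequenced in 12 bulk libraries, 4 per group. The authors trimmed reads with cutadapt (1.13), used STAR for alignment (build mm10) and deposited raw counts per Ensembl gene from HTSeq 0.6.1p1, not normalized. Not given in the sources used here are the STAR version, annotation release and strand setting, and mitochondrial genes held 0 counts. Groups and replicate numbers came from the labels. The study's methods name 4 independent experiments. Symbols, positions and exon lengths were taken from GENCODE vM21 by identifier (54165 of 54232 identifiers matched).

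Counts were scaled by TMM and tested with edgeR 4.0.16 (R 4.3.3) quasi-likelihood over the 17721 genes that filterByExpr kept, with all 12 libraries in 1 fit. The standard error is the absolute log2 fold change divided by the square root of F. CPM used effective library sizes, and log2 CPM a prior count of 2. Libraries that share a replicate number across groups deviated together (correlation of deviations across genes 0.329 to 0.634 in 12 pairs, every pair above 0.1), against -0.220 to 0.197 for different numbers within a label set. This pairing rests on the counts, since no label states it. Blocked results therefore stand beside unblocked ones. For single genes, log2 CPM of 4 against 4 libraries were permuted exactly, two-sided (smallest p 0.0286). The edgeR fits were tested on simulated data with a replicate effect built in and 200 genes changed in LDHi. In the comparisons that involve LDHi, the fit without the block called 58% to 60% of changes of log2 size 1. It called 78% to 80% of those of size 2, with 0 false calls. With the block the shares were 81% to 83% and 97% to 98%, with 4 to 11 false calls.

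The 47 genes and the gene lists were chosen with earlier results of these data known. Genes named are those called in a treatment comparison with or without the block, Fzd5 and Shisa2, and in each role the 2 with the highest level per kb and the one with the smallest adjusted p in each comparison. Genes named beyond this were chosen after their values were seen. Alternatives were DESeq2 1.42.0, scaling by RLE or by library totals, testing unfiltered genes or those with 10 counts throughout, fitting only the groups compared, the block, a label set term, either set by itself, leaving out single libraries, and a minimum log2 fold change of 1. Figures were drawn with matplotlib 3.10.9.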

Additional observations from a re-analysis of the deposited data

How the results depend on the processing

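In LDHi against control organoids, the 7 genes called became 15 with DESeq2, 4 with only the 2 groups compared, 24 with the replicate block, 28 with DESeq2 and the block, 13 with the label set as a term, 1 in replicates 1 and 2 alone and 2 in replicates 3 and 4 alone. They numbered 3 to 10 when 1 library was left out (4 without LDHi replicate 1 or control replicate 3 and 3 without LDHi replicate 2), and the 24 called with the replicate block numbered 16 to 22 when 1 replicate number was left out. With a log2 fold change of at least 1 as well, 6 of the 7 remained. Calls over all genes tested (17077 to 18482 per fit) shifted too. They went from 547 to 1362 with DESeq2, 304 with only the 2 groups compared, 3533 with the block and 4117 with DESeq2 and the block. They were 1387 with the label set as a term, 3 in replicates 1 and 2 alone and 110 in replicates 3 and 4 alone. Leaving out 1 library gave 110 to 872, and leaving out 1 replicate number with the block gave 1826 to 2893. In LDHi+lactate against LDHi, the count of 0 became 2 with DESeq2, 3 with the replicate block and 9 with DESeq2 and the block, and was 0 in all 12 fits that left out 1 library. The 3 called with the block became 0 to 5 when 1 replicate number was left out, and 0 without replicate 1, 2 or 3. Of all 17721 genes, 0 were called in this comparison by the main fit, 55 with DESeq2, 113 with the block and 491 with DESeq2 and the block. In LDHi+lactate against control, the count of 0 became 1 with DESeq2, 10 with the block and 17 with DESeq2 and the block, and the 10 became 1 to 6 when 1 replicate number was left out (1 without replicate 1, 6 without 2, 2 without 3 and 5 without 4). Here 0 of all 17721 genes were called by the main fit, 229 with DESeq2, 1426 with the block and 2500 with DESeq2 and the block. The 13 genes called between label sets became 7 to 13 when 1 library was left out (7 without LDHi+lactate replicate 4, and 8 without LDHi+lactate replicate 1, LDHi replicate 2 or 4, or control replicate 3), and 17 with DESeq2. Between label sets, 4949 of all 17721 genes were called by the main fit and 5795 with DESeq2. Scaling by RLE or library totals and dropping the filter left the counts of 7, 0 and 0 as they were. None of the 37 single-gene results examined reversed under an alternative in which it was examined. Fits that left out 1 library were examined in this way only for the 7 genes called without the block. Fits that left out a replicate number were not part of this count. The cause of these shifts was not tested. In 90 groups of 4 libraries examined, no library stood apart by Dixon's test on log2 CPM. The test was not run on CPM. On that scale Dkk2 was at 26.0 CPM in control replicate 4, against 0.261 to 4.44 CPM in the other control libraries. Wnt10a, with 75 counts, did not pass the filter at this depth.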
